A study of Mus musculus with 8 samples.

Results

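The cluster of miR-106b, miR-93 and miR-25 is a group of 3 microRNAs (miRNAs) that are cut from 1 primary transcript. Its members were taken by name as the rows mmu-miR-106b, mmu-miR-93 and mmu-miR-25 of a real-time PCR table, 3 of 517 mouse miRNA assays, and the opposite (star) strands of the hairpins were not counted as members. All samples came from female apoe-/- mice, labelled 6 to 8 weeks of age, which lack apolipoprotein E and had been given a fat-rich diet (21% crude fat, 0.15% cholesterol, 19.5% casein) for 3 months. The 2 groups were early atherosclerotic plaque from the aortic root (plaque 1 to 4) and arterial wall of normal appearance, labelled un-diseased (undiseased artery 1 to 4), cut by laser microdissection from at least 40 sections of 20 µm per mouse. Both groups thus carried the gene deletion and the diet, and there was no wild-type or normal-diet group here. The effect of plaque cannot be told apart from that of the vessel site, and whether 1 mouse gave both tissues is not stated in the labels.

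The cluster lies in an intron of Mcm7, which encodes a subunit of the replicative DNA helicase, and it is transcribed with its host gene, which the cell cycle factor E2F1 and the oncogene MYC activate. miR-106b and miR-93 have the same seed, the stretch through which a miRNA recognises its target messages, and both repress the cell cycle inhibitor Cdkn1a. miR-25 has another seed and represses the death-promoting factor Bcl2l11. Dividing cells generally hold more of the cluster than resting ones, and miR-106b has been shown in cultured cells to repress Abca1, the cholesterol exporter of macrophages and other cells.

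RefSeq (GRCm38.p6) places all 3 hairpins on the minus strand of chromosome 5 inside Mcm7. The Mir106b hairpin lies at chr5:138165737-138165818, Mir93 at chr5:138165523-138165610 and Mir25 at chr5:138165321-138165404, so that the cluster spans 498 bases with gaps of 126 and 118 bases. The assay names give no arm. By the naming of that catalogue the unstarred name is the dominant strand, which is the 5p arm for miR-106b and miR-93 and the 3p arm for miR-25. The mature sequences are shown with the miRNAs of the paralogous clusters led by miR-17 and miR-106a that have the same seed, because each member is compared with such a relative, and the capitals mark the seed (bases 2 to 8).
miR-106b: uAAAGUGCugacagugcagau
miR-93: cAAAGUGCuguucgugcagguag
miR-17: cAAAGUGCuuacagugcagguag
miR-20a: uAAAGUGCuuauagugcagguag
miR-25: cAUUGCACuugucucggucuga
miR-92a: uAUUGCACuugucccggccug

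Of 1679 distinct mature mouse miRNA names in the RefSeq table, 7 had the seed AAAGUGC and 6 the seed AUUGCAC. Compared base by base from the 5′ end without gaps, miR-106b matched miR-93 at 16 of 21 positions and miR-17 at 18 of 21. miR-93 matched miR-20a at 19 of 23, and miR-25 matched miR-92a at 18 of 21. Outside the seed, miR-106b thus had fewer mismatches to its paralogue miR-17 (3) than to its cluster mate miR-93 (5). Whether the PCR assays separate such close relatives was not tested here.

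The table gave raw Ct values (threshold cycles, so that a later Ct means less RNA), with 40 for no amplification and 35 or later counted as not detected. All plaque samples except plaque 4 amplified later than every undiseased sample: the mean raw Ct of 124 miRNAs detected throughout was 24.7 to 26.6 in undiseased artery and 26.3 to 29.9 in plaque. The difference of 2.70 cycles did not pass an exact permutation test (two-sided, p = 0.0571, the smallest possible being 0.0286). Between 227 and 288 miRNAs were detected per undiseased sample and between 148 and 240 per plaque sample, the fewest in plaque 3 (148) and plaque 2 (175). The normalised level used below is the negative of a Ct after subtraction of its sample's mean over those 124 miRNAs. On this log2 scale a step of 1 stands for 2-fold where each cycle doubles the product. Levels of different assays are not comparable, and all 3 members were on panel 1 of the 2 assay panels.

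In raw cycles all 3 members amplified later in plaque. miR-106b crossed the threshold at Ct 29.0, 28.0, 27.5 and 30.1 in undiseased artery 1 to 4 and at 30.6, 31.1, 33.0 and 31.1 in plaque 1 to 4. miR-93 gave 26.1, 25.4, 24.7 and 27.5 in undiseased artery, and in plaque 1, 2 and 4 it gave 28.4, 31.98 and 28.1, with no amplification in plaque 3. miR-25 gave 28.1, 27.5, 26.1 and 29.9 in undiseased artery and 30.8, 34.8, 33.97 and 30.01 in plaque. Every detected plaque value was later than every undiseased value of the same assay. How many of all tested miRNAs were apart in this way on raw Ct was not counted, so nothing particular to the members is read from it. The narrowest margins were those of miR-25 between undiseased artery 4 and plaque 4 and of miR-106b between undiseased artery 4 and plaque 1. miR-25 in plaque 2 was also close to the detection limit of Ct 35. Just below a whole cycle lay miR-93 in plaque 2 (31.984) and miR-106b and miR-25 in plaque 3 (32.975 and 33.969). miR-106b and miR-25 in plaque 2 (31.128 and 34.765) did not. Many marker and paralogue assays in plaque 2 and 3 also read just below a whole cycle. Examples are miR-142-3p (33.99) and miR-451 (31.968) in plaque 2, and miR-451 (32.978) and miR-92a (28.957) in plaque 3. Others did not, such as miR-155 (31.349) in plaque 2 and miR-20a (31.105) in plaque 3. Why was not tested, and all these values were used as read.

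Undiseased artery 3 held the earliest and undiseased artery 4 the latest Ct of each member within their group. On average miR-106b was later in plaque by 2.82 cycles, miR-93 by 3.59 (3 plaque samples) and miR-25 by 4.48. On raw Ct the 3 members passed limma (adjusted p = 0.0255, 0.0239 and 0.00974, Benjamini-Hochberg over 172 miRNAs), as did 47.1% of all tested miRNAs, which amplified later in plaque too. The median shift over all tested miRNAs was 2.59 cycles, so that miR-106b stood close to it and miR-25 furthest beyond it of the 3. The shift differed between the panels. The median normalised log2 fold change was -0.73 on panel 1, which held the members, and 0.82 on panel 2.

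**Figure D1:**
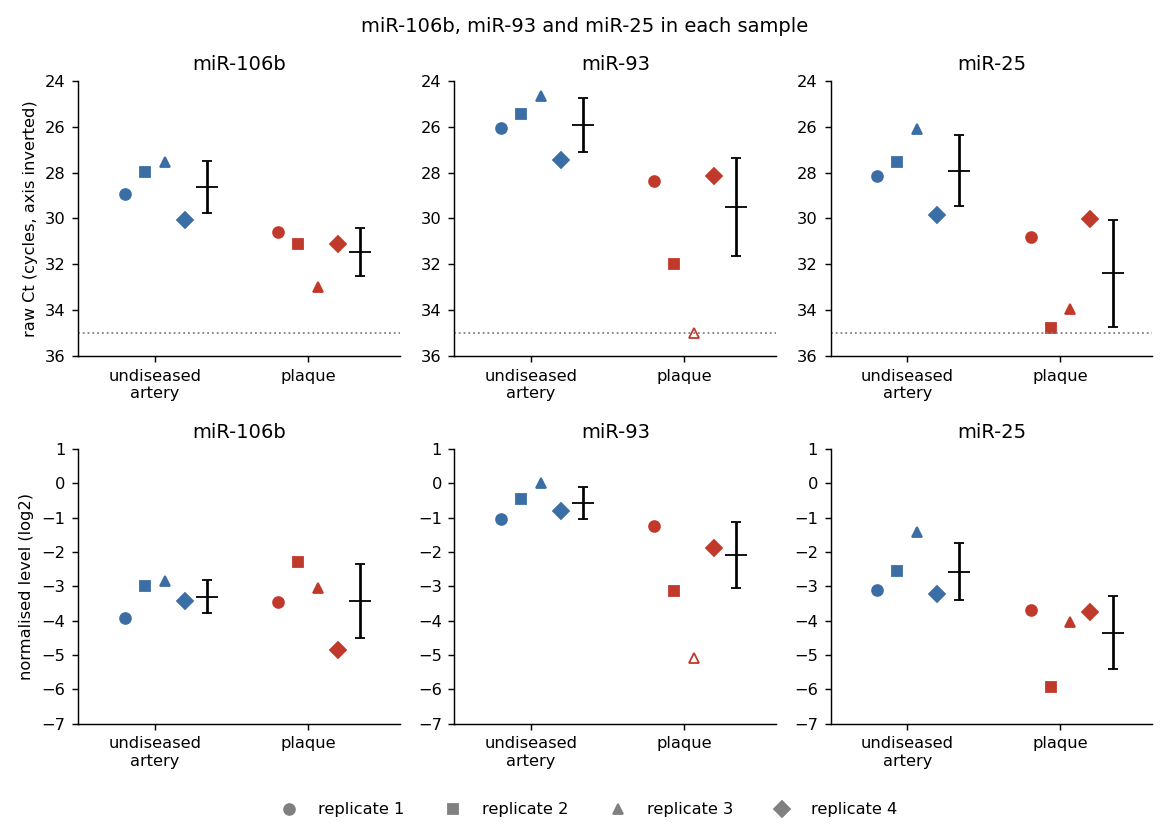
Raw Ct (top, inverted axis in cycles, dotted line at the detection limit of 35) and normalised level (bottom, log2) of the 3 members in each sample, with the group mean and SD over the detected samples beside the points. The open triangle is plaque 3, where miR-93 was not detected, drawn at the limit. On the raw scale the groups are apart for all 3 members, which was not counted over all tested miRNAs. On the normalised scale miR-106b overlaps.

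Relative to the other miRNAs of each sample, miR-25 was lower in plaque, miR-93 was lower without passing the test, and miR-106b was near 0 change. The question was whether early plaque and undiseased wall differ in each member, tested with limma over the 172 miRNAs that both groups showed in 3 or more of their 4 samples, a filter that all 3 members passed. A single member, miR-25, fell and 0 rose. Over all tested miRNAs 18.6% were called lower, and among those of panel 1 it was 27.5%. The members' median log2 fold change was -1.52, against -0.11 over all tested miRNAs and -0.73 over panel 1. In these bulk samples, fewer cells that hold a miRNA and less of it per cell cannot be told apart.

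In undiseased artery the level of miR-25 was -3.12, -2.54, -1.40 and -3.21, and in plaque it was -3.69, -5.93, -4.04 and -3.75, each in the order of the sample numbers. All plaque samples lay below all undiseased ones, by a narrow margin between undiseased artery 4 and plaque 1, and plaque 2 lay well below the other plaque samples. The mean went from -2.57 ± 0.832 to -4.35 ± 1.06 (SD, n = 4 each), a 3.44-fold fall (limma log2 fold change -1.78, SE 0.627, adjusted p = 0.0463, 95% interval -3.16 to -0.41). This call was close to the threshold. Of the 8 fits that left out 1 sample it passed only without plaque 1 (-2.0) and without plaque 4 (-1.99). It was lost without undiseased artery 1, 2, 3 or 4 (-1.97, -1.77, -1.39 and -2.0) and without plaque 2 (-1.26) or plaque 3 (-1.89), with limma's adjusted p from 0.0546 to 0.159 in those 6 fits.

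The level of miR-93 was -1.03, -0.44, 0.02 and -0.82 in undiseased artery and -1.24, -3.15 and -1.88 in plaque 1, 2 and 4. The 3 plaque values lay below the 4 undiseased ones, and in plaque 3, where it was not detected, a Ct of 35 would have corresponded to a level of -5.07. Of all tested miRNAs 18.6% were apart in this way, with all detected plaque values below all undiseased ones, miR-25 and miR-93 included. The means were -0.57 ± 0.462 (SD, n = 4) and -2.09 ± 0.972 (SD, n = 3), a log2 fold change of -1.52 (limma SE 0.579, adjusted p = 0.0661, 95% interval -2.81 to -0.23). Yet miR-25, which crossed after miR-93 in every sample that read both, was detected in plaque 3 at Ct 33.97. Whether the missing miR-93 value stands for a low level was not tested. With plaque 3 set to its limit the difference was -2.27 (limma adjusted p = 0.0595), and without plaque 1 the test was passed (-1.95, adjusted p = 0.0468, plaque 2 and 4 only). Without plaque 2 the difference was -0.99.

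The level of miR-106b was -3.93, -2.98, -2.84 and -3.44 in undiseased artery and -3.47, -2.29, -3.05 and -4.86 in plaque. The groups overlapped fully: plaque held both the highest value, in plaque 2, and the lowest, in plaque 4. With means of -3.30 ± 0.492 and -3.42 ± 1.08 (SD, n = 4 each), miR-106b had a log2 fold change of -0.12 (limma SE 0.581, adjusted p = 0.878, 95% interval -1.40 to 1.16). The interval covers more than a 2-fold difference in either direction. The sign turned without undiseased artery 3 (0.03), without plaque 4 (0.36) and with panel-wise centring (0.43). Without plaque 1, 2 or 3, or undiseased artery 1, 2 or 4, it stayed below 0, and the largest of these differences was -0.50, without plaque 2.

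**Figure D2:**
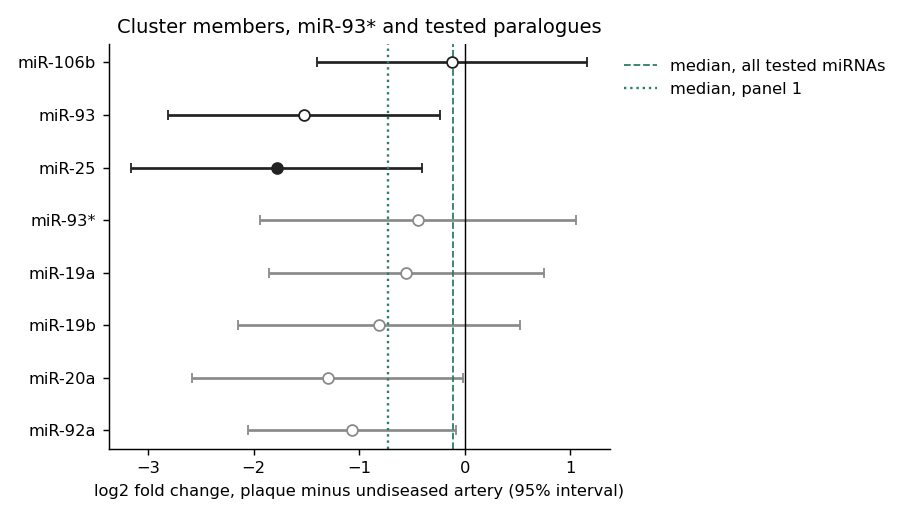
Log2 fold change of plaque over undiseased artery with limma's 95% interval for the 3 members (black), miR-93* and the tested members of the paralogous clusters (grey). The filled point, miR-25 at -1.78, is the 1 that passed an adjusted p of 0.05, and the dashed and dotted lines are the medians of all tested miRNAs (-0.11) and of panel 1 (-0.73).

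The difference between 2 members within a sample needs no reference, since both Ct values come from the same RNA and the same panel. In all, 6 such pairs, all on panel 1, were compared by a two-sided exact permutation test. They were the 3 pairs within the cluster and each member with a paralogue of its own seed. In undiseased artery miR-106b followed miR-93 at an almost fixed distance of 2.90, 2.54, 2.86 and 2.62 cycles. In plaque 1, 2 and 4 that distance was 2.23, -0.86 and 2.98 cycles, so that plaque 1 and 4 lay near the undiseased samples and plaque 2 alone reversed the order of the assays. The mean distance was 2.73 ± 0.176 cycles in undiseased artery (SD, n = 4) and 1.45 ± 2.03 in plaque (SD, n = 3). The difference of -1.28 did not pass (exact p = 0.200, adjusted over 6 pairs 0.343). It was -0.12 without plaque 2 and -2.04 without plaque 4 (exact p = 0.0667).

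miR-106b and miR-25, which lie at the 2 ends of the cluster, spread in the same way. Their Ct difference was 0.81, 0.44, 1.44 and 0.22 cycles in undiseased artery, in sample order, against -0.23, -3.64, -0.99 and 1.12 cycles in plaque. Plaque 1, 2 and 3 were below all undiseased samples, and plaque 4 lay among them. The mean was 0.73 ± 0.530 cycles in undiseased artery and -0.93 ± 2.0 cycles in plaque (SD, n = 4 each), a difference of -1.66 that did not pass (exact p = 0.143, adjusted 0.343). Without plaque 4 it was -2.35, with the smallest exact p that 35 arrangements allow (0.0286, adjusted 0.171). It was -0.76 without plaque 2, and without plaque 2 and 3 together, the samples with the fewest miRNAs detected, it was -0.28.

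The distance between miR-93 and miR-25 was the most even of the 3 over both groups together, although within undiseased artery that between miR-106b and miR-93 was more even. miR-93 came before miR-25, with a Ct difference of -2.0 ± 0.410 cycles in undiseased artery (SD, n = 4) and of -2.37 ± 0.464 cycles in plaque (SD, n = 3). The values overlapped, between -2.40 and -1.42 cycles in undiseased artery and between -2.78 and -1.86 cycles in plaque. The difference between groups of -0.37 cycles did not pass (exact p = 0.314, adjusted 0.377), and it was -0.16 without plaque 2, -0.17 without undiseased artery 3 and -0.62 without plaque 4. None of the 6 pairs passed, but after adjustment no single pair could have passed with so few samples, even at the smallest exact p of 0.0286. Whether the ratio of the members to each other differed between the groups was thus not resolved.

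**Figure D3:**
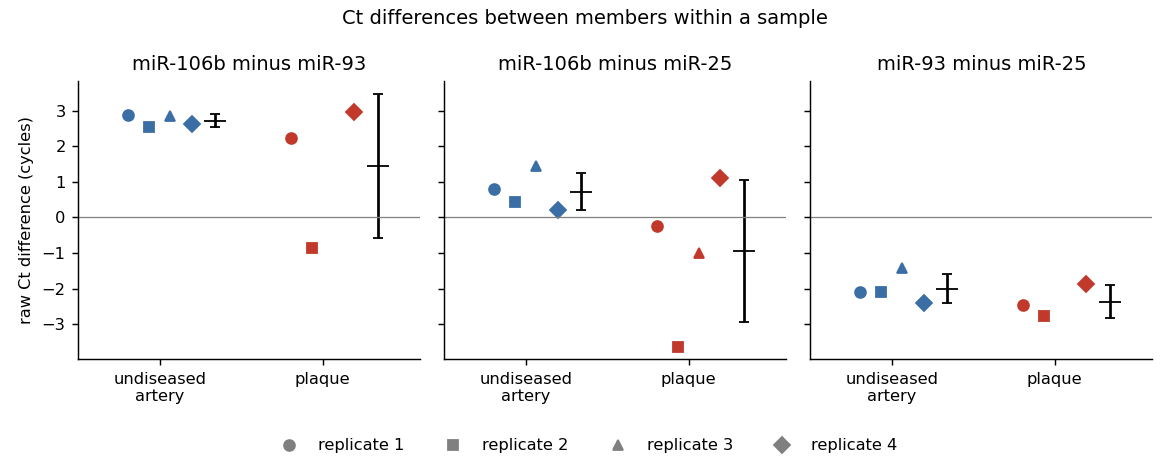
Raw Ct difference in cycles between 2 members of the cluster within each sample, with the group mean and SD. Plaque 2 lies at -0.86 for miR-106b minus miR-93 and at -3.64 for miR-106b minus miR-25, apart from the other samples, while miR-93 minus miR-25 stays between -2.78 and -1.42 in all 7 samples that detected both.

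Between 2 assays of the same panel, a likeness measure that also needs no reference is the SD over samples of their Ct difference. A small SD means that both moved in parallel from sample to sample. It describes the 8 samples, which share depth and group with every assay, and it was not tested. For miR-25 and miR-93 this SD was 0.441 cycles over 7 samples. Over those same samples miR-93 was the closest of 124 miRNAs to miR-25, and miR-25 the second closest of 124 to miR-93, against median SDs of 1.58 and 1.37 cycles. Ranks and medians of this measure take in assays of both panels. A shift between panels that differs from sample to sample can widen the SD to panel 2 assays, so a rank may partly reflect a shared panel. miR-106b stood in the middle of the table for both of its cluster mates, with an SD of 1.62 cycles to miR-25 (rank 84 of 123 from miR-106b's side) and of 1.36 cycles to miR-93 (rank 72 of 124).

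Among the miRNAs detected in all 8 samples, the 5 closest to miR-93 were miR-30d (0.421 cycles), miR-25, miR-30c (0.455), miR-497 (0.472) and miR-30a (0.523). The 5 closest to miR-25 were miR-30d (0.549), miR-30a* (0.689), miR-30c (0.700), miR-92a (0.722) and miR-30e* (0.732). Of these, miR-30a* and miR-30e* are on panel 2 and the others on panel 1. Closeness over both groups includes the shift between them, so the neighbours of a member share its difference by construction, and nothing is read from their calls against the 18.6% called lower overall. All 5 neighbours of miR-93 were called lower in plaque, and 2 of those of miR-25, miR-30d (-2.02) and miR-30c (-1.77). The 5 closest to miR-106b were other assays: miR-27a (0.506), miR-328 (0.539), miR-27b (0.577), miR-148a (0.649) and miR-29b (0.677). None of these 5 was called, and their log2 fold changes ran from -0.74 to 0.47.

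The paralogous clusters gave few values to set beside the members. Of 10 such miRNAs, all on panel 1, 4 were tested and 0 passed, where 27.5% of panel 1 were called lower and 6.42% higher. All 4 lay below 0, as did 71 of 109 on panel 1. Their median log2 fold change was -0.94, against -0.73 over panel 1 and -0.11 over all tested miRNAs. miR-92a, the seed relative of miR-25, gave -1.07 (limma adjusted p = 0.0866), and miR-20a, a seed relative of miR-93, gave -1.30 (adjusted p = 0.106, 3 plaque samples). miR-19b (-0.81) and miR-19a (-0.55), which have neither seed, did not pass. miR-25 followed miR-92a by 4.36 ± 0.590 cycles in undiseased artery and by 5.08 ± 0.726 cycles in plaque (SD, n = 4 each), and this difference of 0.71 did not pass (exact p = 0.229, adjusted 0.343). It was 0.40 without plaque 2, 0.43 without undiseased artery 3 and 0.28 without plaque 2 and 3.

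The other relatives compared with a member were read in too few plaque samples. miR-106b followed miR-17 by 7.39, 6.09, 6.54 and 7.40 cycles in undiseased artery and by 7.54 and 8.22 cycles in plaque 1 and 4, since miR-17 was not detected in plaque 2 and 3. Both plaque values lay above the undiseased ones (difference 1.03, exact p = 0.133), but with 4 against 2 samples the smallest p possible was 0.0667. miR-93 and miR-20a were both detected only in plaque 1 and 4 besides the undiseased samples, where their distance of 1.24 ± 0.585 cycles (SD, n = 2) lay within the undiseased range around 1.26 ± 0.618 (SD, n = 4; exact p = 1). miR-32, miR-363 and miR-367, which have the miR-25 seed, were detected in 2, 1 and 0 undiseased samples and in 0 plaque samples.

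Of the star strands, the table held miR-106b* and miR-93*, and miR-106b* was detected in 0 of 8 samples. miR-93*, from the 3p arm of the miR-93 hairpin and measured on panel 2, did not pass (log2 fold change -0.45, limma SE 0.674, adjusted p = 0.611). Neither strand of the hairpin amplified in plaque 3. The Ct of miR-93 minus that of miR-93* was -2.19, -2.23, -2.46 and -1.91 cycles in undiseased artery, -2.75 and -0.98 cycles in plaque 1 and 2, and 0.36 cycles in plaque 4. The distance was thus even in undiseased artery and uneven in plaque, and plaque 4 was the 1 sample in which the star strand crossed first. With panel-wise centring (each assay panel on its own mean) the mean distance changed by -0.23 between the groups, against 1.07 on raw Ct, so the sign depended on the panel reference.

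The level of miR-25 went with the depth of the samples. Undiseased artery 3, the sample with the earliest mean Ct (24.7), had the highest level (-1.40), while plaque 2 and 3, with the latest (28.8 and 29.9), had the lowest levels (-5.93 and -4.04). The detected values of miR-93 were ordered alike, highest in undiseased artery 3 (0.02) and lowest in plaque 2 (-3.15). In plaque 3 miR-93 was not detected although the later assay miR-25 was. The missing value is left out of this order, and whether it stands for a low level was not tested. miR-106b was not ordered in this way: its highest level was in plaque 2 and its lowest in plaque 4. With mean raw Ct as a covariate the differences were -0.81 for miR-25 (limma adjusted p = 0.567), -0.59 for miR-93 (0.643) and -1.10 for miR-106b (0.394), and none passed. Without plaque 2 and 3 they were -1.15, -0.99 and -0.87 (limma adjusted p = 0.193, 0.196 and 0.287), so that the 3 members lay close together in the remaining samples. The part of depth in the fall of miR-25 was not tested beyond these fits.

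**Figure D4:**
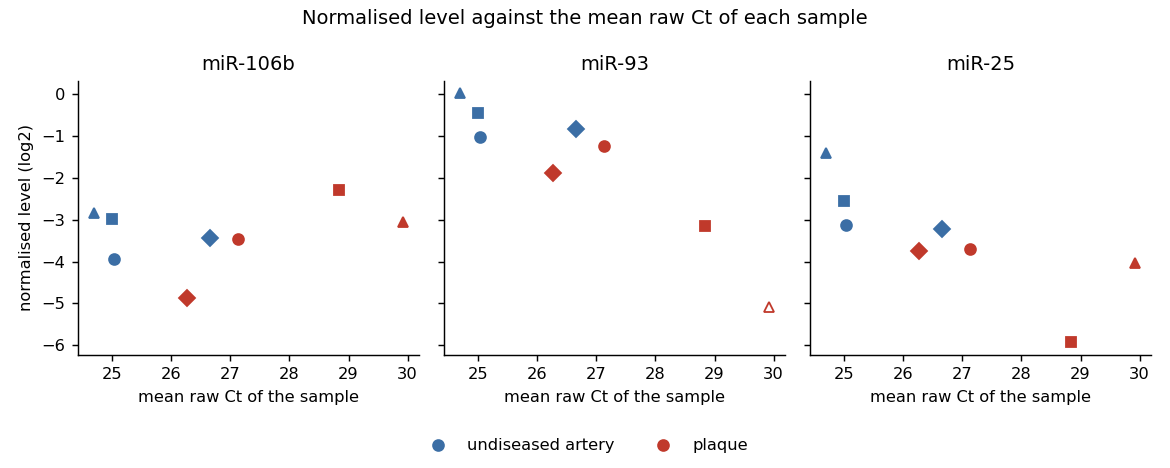
Normalised level (log2) of each member against the mean raw Ct of 124 miRNAs in the same sample, in cycles, for the 4 undiseased (blue) and 4 plaque samples (red). The open symbol is the limit for miR-93 in plaque 3. miR-25 runs from -1.40 in the sample with the earliest mean Ct to -5.93 in plaque 2, and miR-106b shows no such order.

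Markers of other cells were read beside the members. Over all tested miRNAs 34.3% were called, 18.6% lower and 15.7% higher in plaque. Summed levels add assays that may differ in efficiency, so that 1 early assay can set the sum. Both smooth muscle markers, miR-143 and miR-145, fell (median log2 fold change -5.12), with a summed level of 9.40 to 10.34 in undiseased artery and 4.02 to 5.44 in plaque. Of the red cell markers, miR-451 was the 1 of 2 on the table that was detected. Its level was -2.92 to -0.54 in undiseased artery, highest in undiseased artery 3 like that of miR-25, and -4.37 to -3.05 in plaque 1 to 3, with no detection in plaque 4 (log2 fold change -1.56, limma adjusted p = 0.0878). Of 6 tested leukocyte markers 2 rose, miR-155 and miR-146b, and 4 did not pass. Of those 4, miR-146a and miR-223 had log2 fold changes above 0, and miR-150 and miR-142-3p below 0. The summed level of the leukocyte markers was 3.36 to 14.30 in undiseased artery and 2.09 to 18.50 in plaque. Its upper end was set by miR-223 alone. That assay read Ct 10.7, 10.6 and 10.3 in undiseased artery 2 and 3 and plaque 2. In the other samples that detected it, it read 20.8 to 23.3. Of the 2 endothelial markers 0 passed. miR-126-5p gave a log2 fold change of -2.02 (limma adjusted p = 0.0655) and miR-126-3p one of -1.15 (adjusted p = 0.291). Their summed level overlapped (2.11 to 3.19 and -1.05 to 3.43). Of the heart muscle markers 3 of 5 were tested and 0 passed (summed level 3.10 to 4.15 and -2.13 to 6.04), miR-499 was not detected, and miR-208 was detected in 2 plaque samples only. miR-133b was higher in the 3 plaque samples that detected it (1.64 to 2.14) than in every undiseased sample (0.30 to 1.10), without passing (log2 fold change 1.10, limma adjusted p = 0.0947), and 14.0% of tested miRNAs were apart in that direction. The groups overlapped for the other tested heart muscle markers, miR-133a (-0.26, limma adjusted p = 0.879) and miR-1 (0.61, adjusted p = 0.523). The low end of the summed level in plaque was plaque 2, where miR-133b was not detected. The part of these cell types in the values of the cluster was not tested.

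The size of the differences, and for miR-106b the direction, changed with the choice of reference. Against the averaged control RNAs the log2 fold changes were -0.60 for miR-106b, -1.78 for miR-93 and -2.27 for miR-25, and with U6 alone they were -0.57, -1.77 and -2.23. None passed with these references, where the SE rose to between 1.10 and 1.44, and the median of all tested miRNAs was -0.45 and -0.44. With panel-wise centring (each assay panel on its own mean) they were 0.43, -1.08 and -1.23, and none passed. miR-93 and miR-25 thus lay below 0 and below miR-106b with each of these references. The median and quantile references gave -1.84 and -1.83 for miR-25 and also ended its call (limma adjusted p = 0.0522 and 0.0732).

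**Figure D5:**
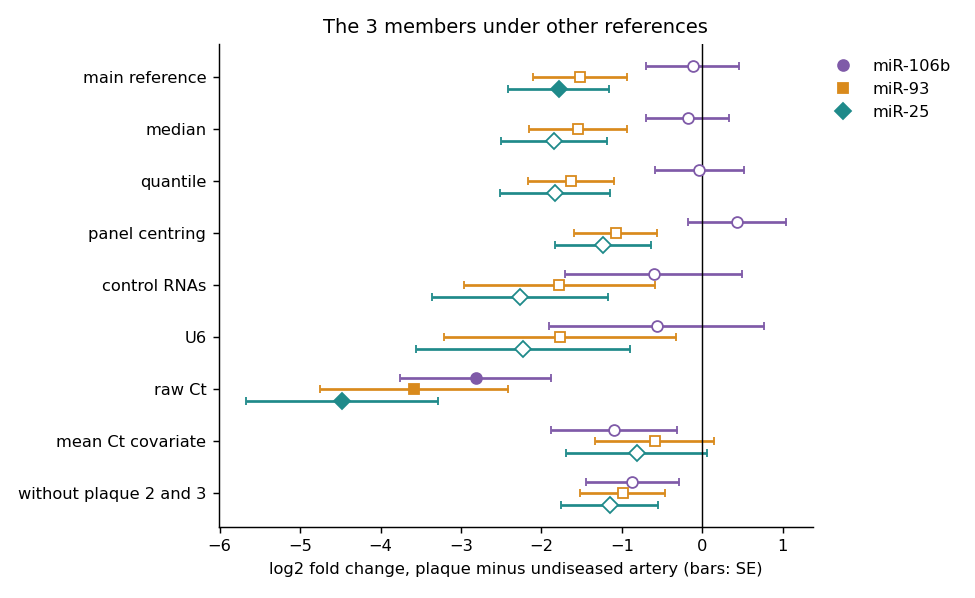
Log2 fold change of plaque over undiseased artery (x axis) for each member under 7 references, with mean Ct as a covariate, and without plaque 2 and 3. Bars are limma's SE and filled symbols passed an adjusted p of 0.05. miR-25 passes with the main reference (-1.78), all 3 members pass on raw Ct, and miR-106b lies to the right of the other 2 under every reference, but not with the covariate.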

How the data were processed

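MiRNAs were measured by real-time PCR with FAM-labelled probes, per the labels, in total RNA from laser-captured tissue (RecoverAll kit), with 4 samples a group that the labels call biological replicates. The authors deposited raw threshold cycles (Ct), with no normalization visible in the values and 40 in 2249 of 4240 wells. Which instrument and software were used was not stated in the labels or the table. Depth here means how early a sample amplified, described by mean raw Ct and the number of miRNAs detected. The Ct values do not give the amount of RNA that entered. The control RNAs were later in plaque by between 0.948 cycles (Y1) and 3.51 cycles (U87).

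Values with a Ct under 35 were kept, others were left missing, and each sample was centred on its 124 miRNAs detected throughout. The 172 miRNAs that both groups showed in 3 or more of their 4 samples were fitted across the whole table with limma 3.58.1 in R 4.3.3 (lmFit, eBayes, group as the only term, two-sided), with Benjamini-Hochberg adjustment over all 172 and a threshold of 0.05. The limma fit was tried on 20 simulated tables with a common spread and the missing values of the data. These held no differences in depth or panel between samples, so the trial does not cover those. Pairs of assays were compared by exact permutation, adjusted over 6 pairs. Quantile normalization used the 124 miRNAs, with the others interpolated. Equal replicate numbers did not pair the samples. Named miRNAs were the members, their star strands, the paralogous clusters, miR-32 and miR-367, the 5 assays most like each member and marker miRNAs. Members and lists were chosen with earlier results of these data known.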

Additional observations from a re-analysis of the deposited data

Results flagged for a closer look

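The level of miR-25 in plaque 2, -5.93, stood apart from the other 3 plaque samples, which lay between -4.04 and -3.69. The gap took up 0.843 of the group's range of 4 samples, above Dixon's 95% limit, and chance gives such a gap in about 1 of 20 groups, where 23 groups were looked at. Its raw Ct was 34.8, close to the detection limit of 35.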

How the results depend on the processing

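The direction of miR-25 and miR-93 was kept in all alternatives that gave a value (24 each), and that of miR-106b in 22 of 25. The number of members called lower, 1, stayed at 1 with a cutoff of 32 (miR-93, since miR-25 had no value there), without the members in the reference, with miRNAs detected throughout and with array weights. It was 3 on raw Ct, 0 in the other settings and 0 to 2 with 1 sample left out. The call of miR-25 was lost with a cutoff of 38 (-1.68), the median (-1.84), control RNAs (-2.27), U6 (-2.23), quantile normalization (-1.83), panel centring (-1.23), mean Ct as a covariate (-0.81) and without plaque 2 and 3 (-1.15). It was also lost at -1.78 with undetected values set to the cutoff and with no filter. A per-miRNA exact test gave -1.78 at its smallest possible p of 0.0286 (adjusted 0.0964), so that it could not have kept the call. With 1 sample left out it ranged from -2.004 to -1.26. miR-93 passed with a cutoff of 32 (-1.72) and on raw Ct (-3.59), and ranged from -1.95 to -0.99 with 1 sample left out. miR-106b passed on raw Ct (-2.82), turned to 0.43 with panel centring and ranged from -0.50 to 0.36 with 1 sample left out. None of the 6 pairs passed in any alternative, which the few samples and the adjustment largely fix, and 1 changed sign, miR-93 and miR-20a (-0.44 to 0.39 with 1 sample left out).

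With replicate number as a block miR-25 was -1.78 (limma adjusted p = 0.0550), miR-93 -1.32 and miR-106b -0.12. The numbers share no stated origin, and same-numbered samples deviated with correlations of 0.130, 0.191, -0.245 and -0.155, with 2 of 4 numbers matching best, so the block is not read as a pairing.

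Over all miRNAs 59 were called (27 higher, 32 lower). There were 2 with control RNAs, 2 with U6, 13 with the covariate, 35 with panel centring, 36 without plaque 2 and 3, 81 on raw Ct (0 higher), and 24, 19 and 20 without undiseased artery 1, 2 or 3. The exact test gave 0 (51 at an unadjusted p under 0.05). Late amplification limits what the plaque samples show, since plaque 3 detected 148 miRNAs.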

Other observations

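Seed relatives of miR-106b and miR-93 were absent from plaque samples in which later-amplifying assays were read. miR-17 gave Ct 21.0 to 22.7 in undiseased artery, 23.0 in plaque 1 and 22.9 in plaque 4, and was at 40 in plaque 2 and 3. miR-106a, which differs from miR-17 at 1 of 23 bases, gave Ct 21.97 to 23.0 in undiseased artery and 23.7 in plaque 4, and was at 40 in plaque 1, 2 and 3. miR-20b was at 40 in plaque 2 and 3, and miR-20a in plaque 2. In those same samples miR-106b was detected at Ct 31.1 (plaque 2) and 33.0 (plaque 3), although it was the latest of these assays in undiseased artery (27.5 to 30.1). miR-93 was at 40 in plaque 3 alone. No intermediate Ct between 35 and 40 was recorded for these 5 relatives and members where they were missing.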
